A study of Mus musculus with 48 samples.

Results

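Fos, Fosb, Fosl1, Fosl2, Jun, Junb and Jund encode the subunits of the transcription factor AP-1. Their symbols were matched to the Ensembl identifiers of the deposited count tables, which gave 7 of 54838 genes, and each of the 7 was counted in all 48 libraries. The libraries hold mRNA from polyribosomes of the mouse nucleus accumbens, a striatal region of reward and motivation, isolated through a haemagglutinin tag on the ribosomal protein Rpl22 (RiboTag). D1 libraries came from Drd1Cre x Rpl22HA mice, in which cells with an active Drd1 promoter carry the tag, and D2 libraries from A2ACre x Rpl22HA mice, in which the adenosine receptor driver marks the other kind of medium spiny neuron. Mice of both sexes were studied on day 10 of abstinence from fentanyl, a mu-opioid agonist, or belonged to water groups. The 8 groups were D1 female fentanyl, D1 female water, D1 male fentanyl, D1 male water and the same 4 of D2, with 6 libraries each. All mice carried Cre and tagged Rpl22, and each library pooled 4 mice with 4 punches of 14 gauge per mouse, so that every p-value refers to pools.

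AP-1 is a dimer whose subunits join through a leucine zipper and bind DNA through the basic region beside it. Jun proteins pair with one another or with Fos proteins, whereas Fos proteins need a Jun partner. Calcium and MAP kinase signals switch most of these genes on rapidly and briefly, which makes Fos a common marker of recent neuronal activity, and a truncated, long-lived FosB protein builds up in striatal medium spiny neurons under repeated drug exposure in rodents. Gene counts do not separate that Fosb form from the full-length one.

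Promoters of Fos and Junb, whose levels moved together between D2 libraries, and of Jun, the member that differed most between the pull-downs, are given here from RefSeq (GRCm38.p6), 250 bases before to 50 bases after the annotated start, 5′ to 3′ on the gene's strand. They lie at chr12:85473640-85473939 (plus strand), chr8:84978699-84978998 (minus) and chr4:95052173-95052472 (minus), and capitals mark motif matches.
Fos: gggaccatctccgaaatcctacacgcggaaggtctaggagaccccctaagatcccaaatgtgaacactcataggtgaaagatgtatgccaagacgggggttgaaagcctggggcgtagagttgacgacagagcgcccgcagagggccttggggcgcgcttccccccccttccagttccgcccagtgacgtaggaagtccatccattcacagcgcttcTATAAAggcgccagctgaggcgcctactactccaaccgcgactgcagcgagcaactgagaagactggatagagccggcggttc
Junb: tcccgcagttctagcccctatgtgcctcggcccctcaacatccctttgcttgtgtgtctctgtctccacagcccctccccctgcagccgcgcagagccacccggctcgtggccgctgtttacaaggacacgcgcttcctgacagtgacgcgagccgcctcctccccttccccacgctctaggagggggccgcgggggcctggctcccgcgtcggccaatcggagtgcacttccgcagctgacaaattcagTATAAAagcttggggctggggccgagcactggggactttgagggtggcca
Jun: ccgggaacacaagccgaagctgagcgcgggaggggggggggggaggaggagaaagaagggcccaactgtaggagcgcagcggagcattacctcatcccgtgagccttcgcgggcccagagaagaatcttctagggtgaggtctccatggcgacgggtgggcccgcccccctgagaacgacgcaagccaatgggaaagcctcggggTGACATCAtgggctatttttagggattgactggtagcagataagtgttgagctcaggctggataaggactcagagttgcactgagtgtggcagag
Both strands were searched for the CRE-like motif TGACNTCA, the AP-1 motif TGACTCA, the CArG box of serum response factor and TATAAA. The TATAAA match began 33 bases before the start in Fos. In Junb it began at the RefSeq start itself, which is 30 bases before the start in the GENCODE annotation. The Jun window held the CRE-like TGACATCA, which began 45 bases before the start. The windows of Fosb, Fosl2 and Jund held none of the 4 motifs, and entries matched 6 of the 7 genes. The RefSeq starts are not always those of the GENCODE annotation. They coincide for Fos and Jun, while the RefSeq start lies 6 bases downstream for Fosb, 671 bases downstream for Fosl2, 30 bases upstream for Junb and 1210 bases upstream for Jund, so the windows of Fosl2 and Jund lie away from the GENCODE starts. Of 32851 promoters of this length, 8.83% held the CRE-like motif, 5.2% the AP-1 motif, 1.63% the CArG box and 13.6% TATAAA, so a match here is a description of the letters and no more.

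In the GENCODE annotation of GRCm38 the genes are Fos on chromosome 12 (85473890 to 85477273, plus strand), Fosb on chromosome 7 (19302696 to 19310051, minus), Fosl1 on chromosome 19 (5447547 to 5455946, plus) and Fosl2 on chromosome 5 (32135801 to 32157842, plus). Jun lies on chromosome 4 (95049034 to 95052222, minus), and Junb (84974484 to 84978718, minus) and Jund (70698949 to 70700616, plus) on chromosome 8. Fos, Fosb and Fosl2 shared no exon base with another gene. Of Fosl1, 57.21% of exon bases overlap Ccdc85b on the opposite strand, of Jund 52.58% overlap the antisense gene Gm11175 (with which 48.3% of its 50-base stretches are shared), of Junb 7.52% overlap Prdx2, and of Jun 7.28% overlap the antisense gene Junos. The library kit keeps no strand, so reads of overlapping partners cannot be told apart, and the levels of Fosl1 and Jund are uncertain for that reason. Ccdc85b had 136 ± 16.1 CPM in D1 libraries and 161 ± 7.64 CPM in D2 libraries (SD, n = 24 each), far above Fosl1.

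Libraries held 20211543 to 42584762 reads in genes, and D1 libraries were shallower (27153238 ± 2712615) than D2 libraries (32690424 ± 3511626; SD, n = 24 each). Levels are CPM, reads scaled to a common library total, with TMM factors. Jund set 3 libraries apart. It had 1003 reads (38.6 CPM) in D1 male fentanyl 6, 1112 reads (39.7 CPM) in D1 male water 6 and 242 reads (6.6 CPM) in D2 female fentanyl 5, against 3 to 22 reads (0.125 to 0.752 CPM) in each of the other 45. In those other libraries Jund thus rested on a median of 14 reads, where counting error alone is large. The partner Gm11175 was listed at 0 in all 48 libraries. In D1 male fentanyl 6 and in D1 male water 6, 10 genes each stood over 10-fold above their median over all libraries, against 2 to 17 such genes per library over the 48 (median 8), and 3 were common to both, Jund, Gm10420 and Rtl8b. Rtl8b was high elsewhere too. Its highest library in each of the 8 groups lay at 20.5 to 73.9 CPM, against a median of 0.175 CPM over all 48. Reads that matched several genes (4.55 to 6.15% of reads per library) or several places (5.44 to 9.81%) were listed on summary lines, apart from the genes. Whether Jund reads went uncounted in the other libraries was not tested. Its log2 differences are therefore given with and without these 3 libraries, and no rank is read from its level.

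Levels of the members other than Jund were ordered per kilobase of merged exons, the scale on which genes can be compared. Among these members Junb ranked first in all 24 D1 libraries, at 41.3 ± 7.92 CPM per kb, and Jun first in all 24 D2 libraries, at 94.7 ± 8.71 CPM per kb (SD). In D1 libraries Jun (13.6 ± 2.19 CPM per kb) and Fos (12.1 ± 3.82) came next and were not separated, since Jun exceeded Fos in 16 of 24 libraries. In D2 libraries Junb (54.7 ± 10.8 CPM per kb) was second in all 24, and Fos came next (10.9 ± 5.44), above Fosl2 in 23 of 24. Fosl2 followed at 3.47 ± 0.694 CPM per kb in D1 and 3.64 ± 0.779 in D2, Fosb at 1.27 ± 0.319 and 1.26 ± 0.266, and Fosl1 at 0.76 ± 0.236 and 0.869 ± 0.231. Fosb exceeded Fosl1 in 21 of 24 D1 and 19 of 24 D2 libraries. Fosl1 was scaled by its full exon length, of which 57.21% overlaps Ccdc85b, so its place relative to Fosb is uncertain.

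Jun, a subunit that can pair with itself or with any Fos protein and is a substrate of the JNK kinases, was the member that differed most between the pull-downs. In water groups it ran from 33.0 to 50 CPM (median 43.1) in D1 libraries, against 243 to 333 CPM (median 304) in D2 libraries. Every D1 library lay below every D2 library. On the log2 scale D1 minus D2 was −2.85 (SE 0.08, 95% interval −3.01 to −2.69, edgeR adjusted p = 3.91e-32), with a D1 mean 0.138 times the D2 mean. In fentanyl groups Jun ran from 33.4 to 61.0 CPM (median 45.4) in D1, against 262 to 359 CPM (median 306) in D2, again without overlap (log2 −2.74, SE 0.08, edgeR adjusted p = 1.66e-31). How many of all genes were without overlap between the pull-downs was not counted, so the lack of overlap alone says little. Leaving out each water library in turn kept the water difference between −2.90 and −2.82. The 2 pull-downs differ widely in general, with 53.4% of 18270 genes called in water and 54.1% in fentanyl at an adjusted p under 0.05, so a call alone says little. The median over all genes was −0.01 in each, and the size of the Jun difference is what sets it apart from the other members.

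**Figure D1:**
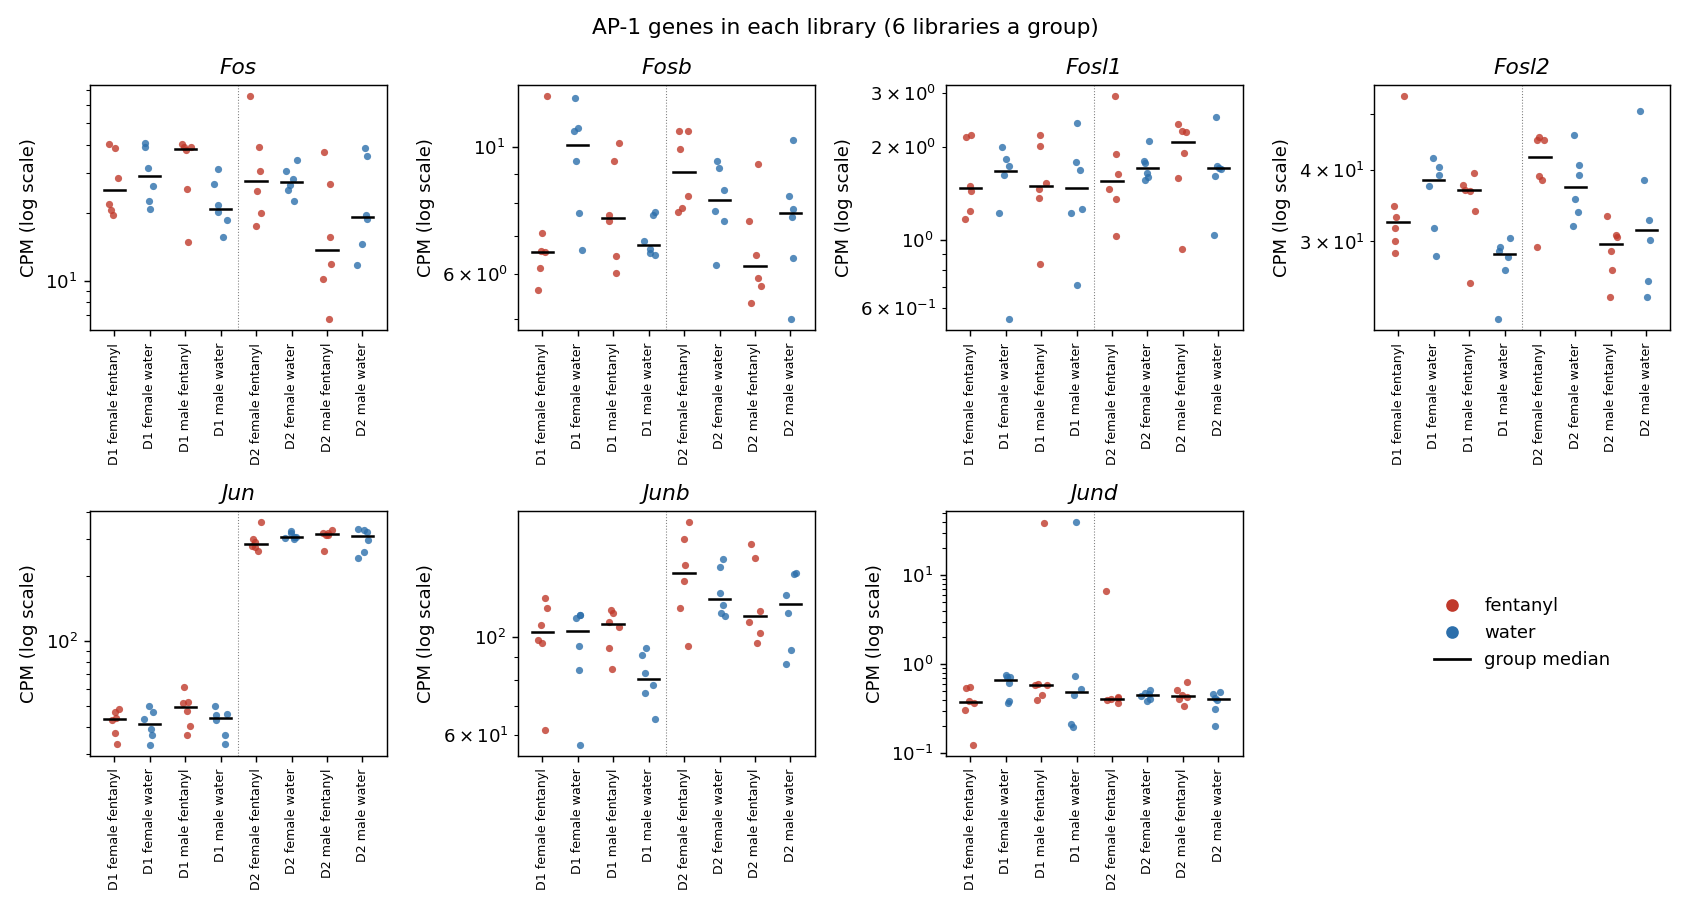
CPM of each member (log axes with their own ranges) in every library, by group, with fentanyl left of water and a bar at each group's median (n = 6 libraries). Jun lies between 33.0 and 61.0 CPM in D1 and between 243 and 359 CPM in D2 libraries, the other members overlap between the pull-downs, and Jund has 3 libraries at 38.6, 39.7 and 6.6 CPM.

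Junb, a Jun protein that often restrains Jun-driven transcription, was lower in D1 than in D2 by a smaller step. In water it ran from 57.2 to 112 CPM (median 87.4) in D1, against 86.9 to 149 CPM (median 121) in D2, and 6 of 12 D1 libraries lay below all D2 libraries (log2 −0.46, SE 0.11, edgeR adjusted p = 3e-04). In fentanyl it ran from 61.8 to 122 CPM (median 105) in D1, against 95.5 to 181 CPM (median 125) in D2 (log2 −0.36, SE 0.11, edgeR adjusted p = 0.0044), and the groups overlapped, with 3 of 12 D1 libraries below all D2 libraries.

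No member of the Fos family passed the test between the pull-downs. Fos averaged 26.3 ± 8.06 CPM over D1 water and 25.6 ± 8.54 CPM over D2 water libraries (log2 0.03, 95% interval −0.42 to 0.48), and at 30.6 ± 9.68 and 25.5 ± 16.4 CPM in fentanyl libraries (log2 0.32, −0.13 to 0.76; SD, n = 12 each). The fentanyl value for Fos passed under limma voom with quality weights (log2 0.52, adjusted p = 0.0249) but not in edgeR (adjusted p = 0.227). For Fosb the intervals were −0.17 to 0.30 in water and −0.28 to 0.20 in fentanyl, for Fosl2 −0.37 to 0.03 and −0.16 to 0.24, and for Fosl1 −0.57 to 0.17 and −0.55 to 0.19. Without the 3 libraries named above, Fos in fentanyl was 0.49. Jund was called higher in D1 water (log2 2.29, edgeR adjusted p = 0.0135), but without D1 male water 6 the value was 0.28, and without all 3 of those libraries 0.26 (adjusted p = 0.273). In fentanyl Jund had log2 0.97 (edgeR adjusted p = 0.3), and 0.02 without the 3. So 3 of 7 members passed in water, 1 of them through a single library, against 53.4% of all genes. In fentanyl 2 of 7 passed, against 54.1% of all genes.

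The make-up of the AP-1 message differed accordingly. Of the summed level per kilobase of the 7 genes, Jun held 18.5 ± 2.81% in D1 and 57.3 ± 5.87% in D2 libraries, Junb 55.4 ± 6.04% and 32.6 ± 3.53%, and Fos 16.1 ± 3.7% and 6.39 ± 2.76% (SD, n = 24 each). The 4 Fos family genes together held 16 to 29.7% in D1 and 5.59 to 17.6% in D2 libraries. Without the 3 libraries of high Jund, in which Jund itself took up to 28.4%, Jun held 18.7 ± 2.89% in D1 and 58.0 ± 4.86% in D2 libraries, Junb 56.7 ± 4.09% and 32.3 ± 3.3%, and Fos 16.6 ± 3.47% and 6.06 ± 2.29% (SD, n = 22 and 23). These shares are parts of 1 whole, so that the lower Jun share raises the others in D1. Jund and Fosl1 enter that whole at counted levels that are uncertain, so the shares describe counted reads only.

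Transcripts of other cells moved with the same contrast, and in bulk RNA fewer cells of a type and less RNA per cell cannot be told apart. All 12 vascular markers were lower in D1, with summed levels of 9.26 to 19.2 CPM in D1 and 228 to 441 CPM in D2 libraries, and none was at 0 in every library of either kind. Lower in D1 water were also 9 of 10 astrocyte markers (257 to 528 CPM in D1 and 487 to 963 CPM in D2 over all libraries), 8 of 9 tested microglial markers (14.2 to 28.0 and 23.3 to 67.6 CPM), 8 of 8 oligodendrocyte markers (300 to 475 and 608 to 908 CPM) and 5 of 5 blood genes (7.19 to 22.7 and 257 to 535 CPM). The microglial receptor gene Trem2 was at 0 in all 12 D1 fentanyl libraries. All 6 interneuron markers were higher in D1 (486 to 1030 CPM against 128 to 202 CPM). The defining genes of the labels were present as named, with 6 of 6 D1 neuron markers higher in D1 (2530 to 3700 against 475 to 693 CPM) and 5 of 5 D2 neuron markers lower (1480 to 3900 against 15200 to 22400 CPM). The D1 over D2 ratio of Jun in water, 0.138, stood among ratios of 0.112 (Adora2a), 0.14 (Drd2), 0.142 (Penk), 0.154 (Gpr6) and 0.314 (Sp9) for the 5 D2 neuron markers, and the 12 vascular markers ran from 0.01 (Vtn) to 0.133 (Kdr), the highest of which is also close to Jun. The part of these cells in the Jun difference was not tested.

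Within each pull-down Jun followed the D2 neuron markers from library to library. With group means removed, log2 CPM of Jun and of the summed D2 neuron markers, a sum dominated by Penk, gave Pearson r = 0.866 and Spearman rho = 0.852 over the 24 D2 libraries. Both had p = 1e-05, the smallest that 100000 permutations within groups can give (adjusted p = 0.00098), and r was 0.809 without the 2 libraries of most extreme Jun. Over the 24 D1 libraries r was 0.602 (permutation p = 0.00249, adjusted 0.0345) and rho 0.667 (p = 0.0009, adjusted 0.0167), with r = 0.612 without the 2 extreme libraries. Against the vascular markers Jun ran the opposite way in D2, with r = −0.78 (permutation p = 2e-05, adjusted 0.00098) and rho −0.758 (p = 0.00013, adjusted 0.00425), or r = −0.706 without the 2 libraries. In D1, where these markers are low, r was −0.005 and rho 0.132 (permutation p = 0.983 and 0.563). Jun was also lower where astrocyte markers were higher in D2 (r = −0.659, permutation p = 0.00282, adjusted 0.0345; rho −0.631, p = 0.00318, adjusted 0.039; r = −0.686 without the 2 libraries). In D1 it was lower where D1 neuron markers were higher (r = −0.643, permutation p = 0.00201, adjusted 0.0328; rho −0.639, p = 0.00239, adjusted 0.0335; r = −0.652 without the 2 libraries). CPM are shares of 1 library total, so that a large gene group raises or lowers the others in part by construction. The relations with marker sums were chosen after the data were seen.

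**Figure D2:**
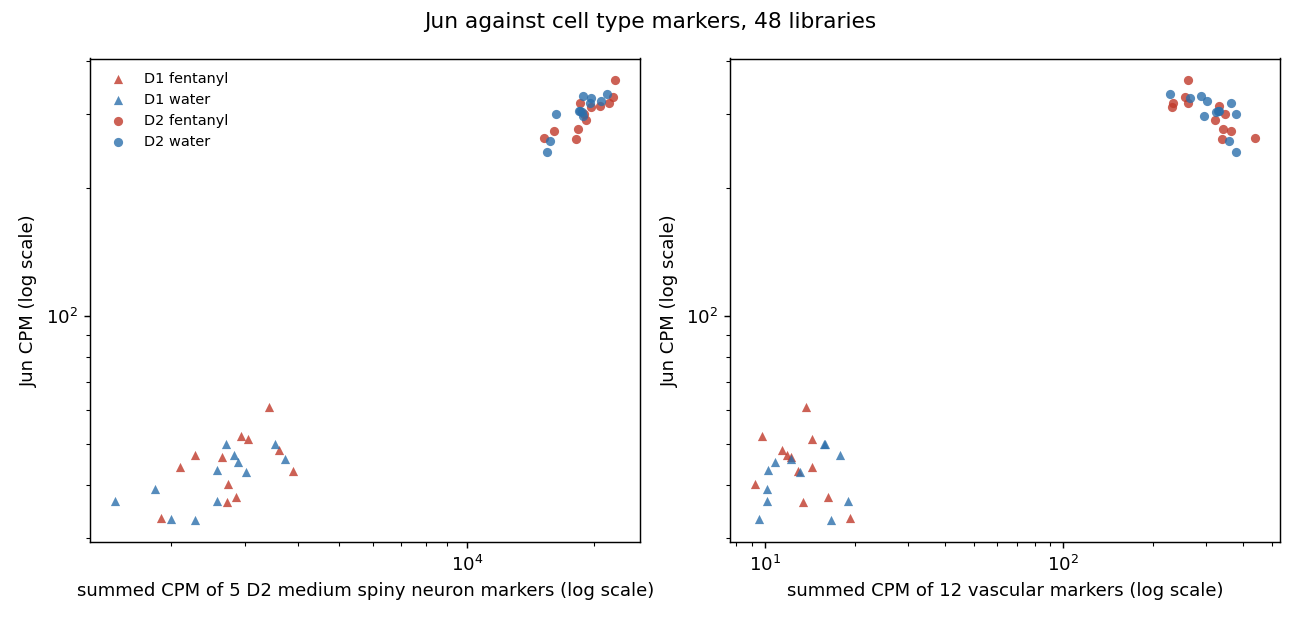
Jun CPM against the summed CPM of 5 D2 medium spiny neuron markers (left) and of 12 vascular markers (right) in each of 48 libraries, all axes logarithmic, triangles for D1 and circles for D2. Among the D2 circles Jun rises with the neuron markers (r = 0.866) and falls with the vascular markers (r = −0.78), and the D1 triangles show a relation on the left (r = 0.602) and a flat one on the right (r = −0.005).

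The wider AP-1 pathway was compared between D1 and D2 water libraries as well, where 26.8% of all genes were higher and 26.6% lower in D1. Of 18 tested bZIP relatives 6 were higher and 2 lower (median log2 0.12, against −0.01 over all genes). Nfe2l2, the NRF2 gene of the oxidative stress response, was lower, with 0.684 ± 0.232 CPM in D1 against 4.64 ± 1.09 CPM in D2 (log2 −2.74), and so was the stress factor Atf3 (−0.84), while Maf (2.07), a large Maf factor gene, was higher. Of 20 MAP kinase and SRF input genes 9 were higher and 3 lower (median 0.10). Among them were the JNK genes Mapk8 (0.44) and Mapk9 (0.37) and the JNK kinase gene Map2k4 (0.57), which were higher in D1, and the ETS factor gene Elk3 (−0.45), which was lower. Of 10 MAP kinase phosphatases 2 were higher and 3 lower (median −0.12), with Dusp10 at 1.29, Dusp16 at 0.38, Dusp14 at −0.50 and Dusp1 at −0.33. Of 16 tested immediate early genes outside AP-1, 4 were higher and 5 lower (median −0.15). Klf2 had 1.04 ± 0.428 CPM in D1, against 10.0 ± 1.81 CPM in D2 (log2 −3.26), Klf4 at 0.278 ± 0.148 and 2.53 ± 0.734 (−3.19), and both are strongly expressed in endothelium. Nr4a1, an orphan nuclear receptor gene, was lower (67.8 ± 30.2 and 124 ± 28.1 CPM, log2 −0.92), and its relative Nr4a2 higher (2.29). Of 14 tested genes reported as AP-1 or FosB targets 7 were higher and 3 lower (median 0.18), led by the neuropeptide genes Pdyn (4.08) and Penk (−2.81), which themselves mark the 2 neuron kinds, then Bdnf (1.05) and the cyclin gene Ccnd1 (0.65). Of 5 genes whose products act on Fos or Jun proteins, the ubiquitin ligase genes Ubr1 (0.50) and Fbxw7 (0.38) and the casein kinase genes Csnk2a1 (0.20) and Csnk2b (0.12) were higher, and none was lower. Values named in these lists all passed edgeR at an adjusted p of at most 0.0289.

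Fentanyl abstinence was compared with water first over both sexes, to ask whether AP-1 transcripts on ribosomes differed at day 10 of abstinence. In D1 libraries no member passed, and neither did any of 16782 genes (0% called in edgeR, 3.81% or 639 genes at an unadjusted p under 0.05, 3 genes in DESeq2 and 0 in limma voom). Junb stood at 61.8 to 122 CPM (median 105) in fentanyl, against 57.2 to 112 CPM (median 87.4) in water. The groups overlapped, although 10 of 12 fentanyl libraries lay above the water median (log2 0.22, 95% interval −0.003 to 0.43, edgeR adjusted p = 1). Fosl2, a Fos protein with longer-lasting expression than Fos, stood at 25.4 to 53.7 CPM (median 34.3) against 22 to 41.9 CPM (median 29.9), with 10 of 12 above the water median (log2 0.15, −0.04 to 0.35). Fos had log2 0.24 (−0.10 to 0.58), Jun 0.10 (−0.08 to 0.29), Fosl1 0.07 (−0.35 to 0.49) and Fosb −0.10 (−0.35 to 0.16). Apart from Jund (−0.34, −2.32 to 1.65, and −0.18 without the 3 libraries), Fosl1 and Fos had the widest intervals.

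In D2 libraries no member passed either, among 17706 genes with 0% called in edgeR (4.42% or 783 genes at an unadjusted p under 0.05, 0 genes in DESeq2 and in limma voom). Jun stood at 262 to 359 CPM (median 306) in fentanyl, against 243 to 333 CPM (median 304) in water, and the groups covered each other (log2 −0.01, 95% interval −0.12 to 0.09). Its interval was the narrowest among the members. Fos ran from 6.75 to 66.0 CPM (median 22.4) in fentanyl, against 11.7 to 38.9 CPM (median 25.9) in water, and the fentanyl libraries lay on both sides of the water range (log2 −0.06, −0.56 to 0.45). Junb had log2 0.11 (−0.10 to 0.32), Fosl2 −0.06 (−0.26 to 0.14), Fosb 0.01 (−0.21 to 0.22) and Fosl1 0.05 (−0.29 to 0.38). Jund had log2 0.98 (95% interval 0.12 to 1.84, edgeR adjusted p = 0.998) and, without D2 female fentanyl 5, 0.06. All 10 astrocyte markers had a log2 value below 0 in D2 (median −0.22, none called), with sums of 487 to 880 CPM in fentanyl and 515 to 963 CPM in water libraries, and their part in the members' values was not tested. The difference of the response between D1 and D2 was called for none of 18270 genes in edgeR (0% called, 4.52% or 825 genes at an unadjusted p under 0.05, 6 in DESeq2, 0 in limma voom). For the members it ran from −1.32 (Jund, 95% interval −3.54 to 0.90, and −0.24 without the 3 libraries) and −0.11 (Fosb, −0.44 to 0.23) to 0.29 (Fos, −0.34 to 0.92).

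None of the 6 pathway lists had a gene past the threshold over both sexes in D1 or D2, and their medians lay between −0.04 and 0.05 on the log2 scale, against 0.00 over all genes. In D1 the bZIP genes with the smallest p were Atf5 (log2 −0.40) and Atf4 (−0.18), stress-responsive factors, both with edgeR adjusted p = 1. Arc, a synaptic immediate early gene, had 60.0 ± 16.6 CPM in fentanyl and 48.1 ± 15.5 CPM in water (log2 0.35, edgeR adjusted p = 1; SD, n = 12 each). In D2 they included the kinase gene Map3k1 (−0.23) and the neuropeptide gene Vgf (0.10), each with edgeR adjusted p = 0.998.

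Split by sex, the members' values in D1 lay further apart. In D1 males Fos stood at 14.9 to 40.5 CPM (median 38.6) in fentanyl, against 15.6 to 31.4 CPM (median 20.8) in water, with 4 of 6 fentanyl libraries above all water libraries and 1 below (log2 0.57, SE 0.23, 95% interval 0.09 to 1.05). Fosl2 stood at 25.4 to 39.5 CPM (median 36.8), against 22 to 30.4 CPM (median 28.5), with 5 of 6 above all water libraries (log2 0.35, SE 0.13, 0.07 to 0.62). Junb stood at 84.7 to 115 CPM (median 107), against 65.2 to 94.3 CPM (median 80.4), also with 5 of 6 above (log2 0.36, SE 0.15, 0.045 to 0.66). These 3 of 7 members had an unadjusted p under 0.05, against 2.76% of all genes, and none passed edgeR (adjusted p = 1, 0% called, 4 genes in DESeq2). They come from the same 12 libraries and are not separate evidence. Fosb had log2 0.18 (−0.18 to 0.54), Jun 0.18 (−0.08 to 0.45) and Fosl1 0.04 (−0.54 to 0.64). Arc (0.66) and Nr4a1 (0.88) had values of the same sign in D1 males, with edgeR adjusted p = 1. Markers of other cells moved in D1 males too, none called. All 4 tested blood genes were below 0 (median log2 −0.64, 3 of 4 with an unadjusted p under 0.05), with sums of 7.19 to 10.0 CPM in fentanyl and 7.24 to 18.2 CPM in water. Below 0 were also 8 of 10 astrocyte markers (287 to 380 CPM in fentanyl and 257 to 525 CPM in water), 6 of 8 tested vascular markers (9.26 to 14.3 and 9.55 to 18.9 CPM), 6 of 9 tested microglial markers (15.5 to 19.6 and 16.9 to 28.0 CPM) and 8 of 8 oligodendrocyte markers (300 to 475 and 341 to 435 CPM). All 5 D2 neuron markers were above 0 in D1 males (median log2 0.11, sums of 2290 to 3410 and 1480 to 3730 CPM). They were also above 0 in D1 over both sexes (median 0.11). The part of these cells in the members' values was not tested.

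In D1 females the member with the smallest p was Fosb, at 5.63 to 12.3 CPM (median 6.57) in fentanyl, against 6.61 to 12.2 CPM (median 10.1) in water. Of the 6 fentanyl libraries 4 lay below all water libraries and 1 above (log2 −0.37, SE 0.17, 95% interval −0.72 to −0.015, edgeR adjusted p = 0.862, with 5.74% of genes under an unadjusted 0.05 and 0% called in edgeR and in DESeq2). Apart from Jund the other members were closer to 0, with Fos at −0.10 (95% interval −0.57 to 0.38), Fosl2 at −0.04 (−0.31 to 0.23), Junb at 0.08 (−0.23 to 0.39), Jun at 0.02 (−0.24 to 0.28) and Fosl1 at 0.10 (−0.49 to 0.69). All 8 oligodendrocyte markers had a value above 0 in D1 females (median 0.24, none called), and their part was not tested. The test of the difference itself, the response in females minus that in males, gave −0.66 for Fos (95% interval −1.34 to 0.01), −0.55 for Fosb (−1.05 to −0.05), −0.39 for Fosl2 (−0.78 to −0.003) and −0.28 for Junb (−0.72 to 0.16), each with edgeR adjusted p = 0.993 (0% called, 4.02% under an unadjusted 0.05, 4 genes in DESeq2). So no sex difference in the response passed the test, and these intervals reach below −1 on the log2 scale for Fos and Fosb.

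The water groups enter that difference. D1 females stood above D1 males in water for Fosl2 (28.3 to 41.9 CPM, median 38.3, against 22 to 30.4 CPM, median 28.5) and for Fosb (6.61 to 12.2 CPM, median 10.1, against 6.49 to 7.71 CPM, median 6.74). The log2 differences were 0.40 (95% interval 0.13 to 0.68, edgeR adjusted p = 0.737) and 0.46 (0.10 to 0.81, adjusted p = 0.757), and Fos had 0.45 (−0.04 to 0.93). No member was among the 8 genes called (0.0477%). In D2 water libraries the same differences were 0.17 for Fosl2, 0.10 for Fosb and 0.28 for Fos, with 95% intervals that held 0, and 0.0847% of genes were called.

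In D2 the response in females minus that in males was 0.58 for Fos (95% interval −0.42 to 1.58), 0.35 for Fosb (−0.08 to 0.78), 0.30 for Fosl2 (−0.09 to 0.70) and 0.07 for Junb (−0.35 to 0.48), against −0.13 for Jun (−0.34 to 0.09) and −0.15 for Fosl1 (−0.81 to 0.52). The values of Fos, Fosb and Fosl2 were of the opposite sign to those in D1 and that of Jun of the same sign (−0.16 in D1), and none passed edgeR (0% called, 8.23% under an unadjusted 0.05, 11 genes in DESeq2). The response of Fos in D2 females, which enters its sex difference, was 0.24 with all libraries and −0.09 without D2 female fentanyl 5. In D2 females Fosb stood at 7.7 to 10.7 CPM (median 9.07) in fentanyl, against 6.22 to 9.48 CPM (median 8.09) in water, and in D2 males Fosl2 at 24 to 33.2 CPM (median 29.7), against 24 to 50.5 CPM (median 31.4). Apart from Jund the members ran from −0.08 (Jun) to 0.24 (Fos) in D2 females and from −0.35 (Fos) to 0.12 (Fosl1) in D2 males. The groups of both pairs overlapped, and no member passed in either sex (edgeR adjusted p = 0.963 for Fosb and 0.776 for Fosl2, with 0% called in each sex, 4.73% of genes under an unadjusted 0.05 in females and 6.97% in males, and 4 and 1 genes in DESeq2). Of the 16 immediate early genes outside AP-1, 15 had a log2 value above 0 in D2 females and 1 in D2 males, with medians of 0.17 and −0.09, against 0.00 over all genes in each. These genes vary together between libraries, so that the counts are not 16 separate observations. Cell type markers moved with the same split. Above 0 were 10 of 12 vascular markers in D2 females and 1 of 12 in D2 males (median log2 0.11 and −0.14), with sums of 261 to 441 CPM in female fentanyl and 266 to 378 CPM in female water, and of 231 to 341 CPM in male fentanyl and 228 to 379 CPM in male water. Of the 5 D2 neuron markers, 0 were above 0 in females and 5 in males (median −0.15 and 0.09), and 3 of 5 had an unadjusted p under 0.05 for the difference of the sexes, where no marker was called. The part of these cells in the members' values was not tested.

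Jund differences by sex depended on the 3 libraries. In D1 males it had log2 −0.03 with all libraries and 0.28 without the 3, in D1 females −0.64 and −0.64, and in the D1 difference of the sexes −0.61 and −0.92. D1 females minus males in water gave −3.54 with all libraries (edgeR adjusted p = 0.757) and 0.49 without the 3. In D2 females it had 1.68 with all libraries (edgeR adjusted p = 0.907) and −0.16 without the 3, in D2 males 0.28 and 0.28, and in the D2 difference of the sexes 1.397 and −0.44.

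**Figure D3:**
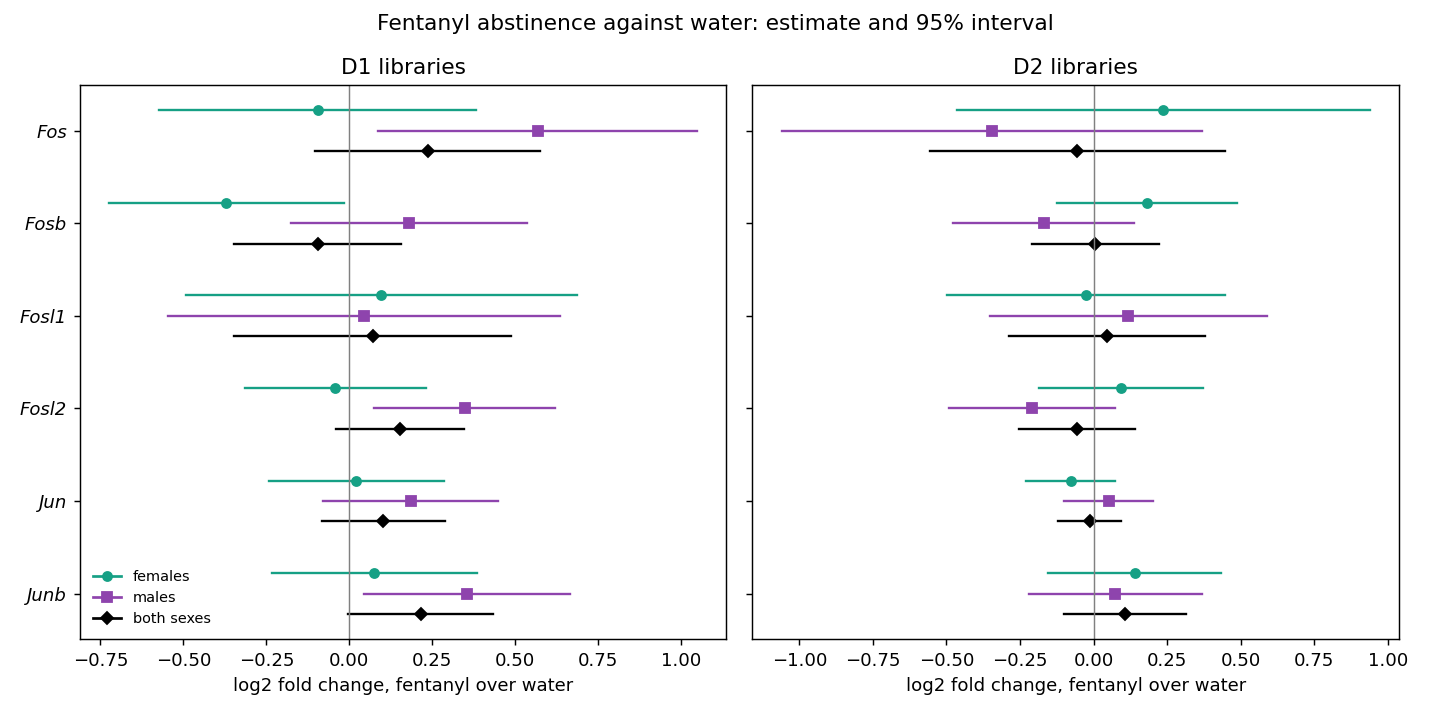
Log2 fold change of fentanyl over water with its 95% interval for 6 members in D1 (left) and D2 libraries (right), for females, males and both sexes. The D1 male intervals of Fos, Fosl2 and Junb lie above 0 and that of Fosb in D1 females below 0, none with an adjusted p under 0.05, and Jun in D2 has the narrowest intervals (−0.12 to 0.09 over both sexes).

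Members were also compared with one another across libraries of 1 pull-down, with group means removed, in the same family of 98 relations as the marker sums. Of these, 9 had an adjusted Pearson p under 0.05, and for 8 the adjusted Spearman p was also under 0.05. Fosb and Fosl2 moved together in both pull-downs, with r = 0.822 (permutation p = 0.00011, adjusted 0.00359) and rho 0.815 (p = 7e-05, adjusted 0.00343) in D1, and r = 0.714 (p = 0.00041, adjusted 0.01) and rho 0.688 (p = 0.00076, adjusted 0.0167) in D2. Without the 2 libraries of most extreme Fosb, r was 0.726 in D1 and 0.686 in D2. Fos and Junb moved together in D2 (r = 0.734, permutation p = 0.00065, adjusted 0.0127; rho 0.723, p = 0.00102, adjusted 0.0167; r = 0.633 without the 2 extreme libraries). In D1 the same pair had r = 0.525 (permutation p = 0.00717, adjusted 0.0703) and rho 0.558 (p = 0.00898, adjusted 0.088), which missed the threshold. Jun was not tied to Fos by these tests, with r = 0.226 in D1 and −0.266 in D2 (permutation p = 0.339 and 0.276; rho 0.163 and −0.338, p = 0.469 and 0.145). The remaining relation past the Pearson threshold, Junb with the astrocyte markers in D1, had r = −0.651 (permutation p = 0.00427, adjusted 0.0465) but rho −0.379 (p = 0.0831, adjusted 0.347), and r was −0.355 without the 2 libraries of most extreme Junb, so it rests on those.

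**Figure D4:**
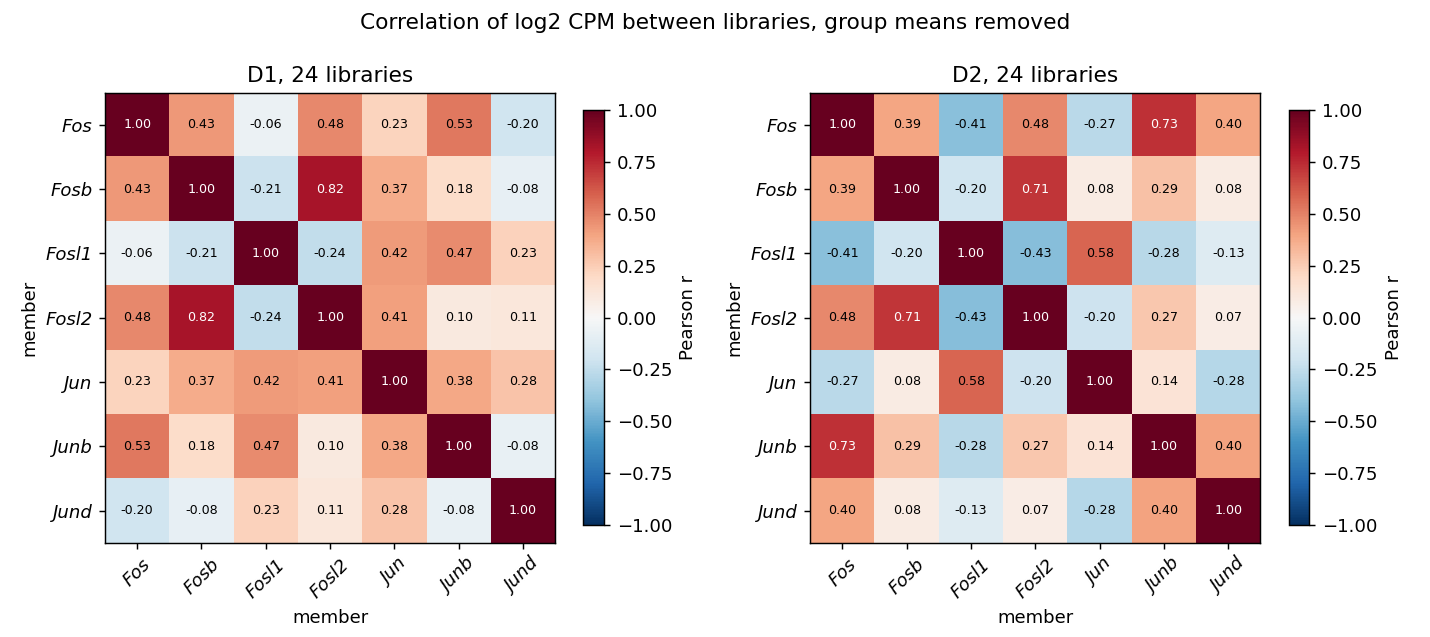
Pearson r between members over 24 D1 (left) and 24 D2 libraries (right), on log2 CPM less the group mean, with r printed in each cell. Fosb with Fosl2 is the highest pair in D1 (0.82), and Fos with Junb (0.73) and Fosb with Fosl2 (0.71) are the highest in D2.

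Among 11978 genes with a mean of at least 2 CPM in both pull-downs, the pattern of each member other than Jund was set beside all others by the mean of its D1 and D2 Pearson r, as a description over 24 libraries each. Closest to Junb were the MAP kinase phosphatase gene Dusp1 (r = 0.85 in D1 and 0.928 in D2), Arc (0.846 and 0.918) and the zinc finger gene Egr4 (0.854 and 0.838). Closest to Fos were Dusp1 (0.762 and 0.866), the bZIP repressor gene Nfil3 (0.75 and 0.87) and Arc (0.702 and 0.915). Fosb lay closest to Fosl2, then to the nuclear receptor gene Nr4a3 (0.624 and 0.707) and the zinc finger gene Egr1 (0.586 and 0.682). Fosl2 lay closest to Nr4a3 (0.745 and 0.85), then to Fosb and to Castor2 (0.68 and 0.713). Jun lay closest to Drd2, the dopamine D2 receptor gene (0.632 and 0.877), Adora2a (0.631 and 0.848) and Gpr6 (0.619 and 0.857), and not to an immediate early gene. For Fosl1 the nearest were Hnrnpl (0.819 and 0.683), Nyap1 (0.839 and 0.627) and Phyhip (0.819 and 0.645).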

How the data were processed

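Ribosome-bound mRNA of mouse nucleus accumbens was sequenced in 48 libraries (Smart-Seq v4, input 10 ng, per the labels' protocols). The tools named for alignment and counting are TopHat2 2.0.8 and HTSeq, on GRCm38, per the submitters' processing notes. The annotation release and strand setting are not given in the sources used here. The deposited values are whole-number counts of reads over exons per gene, not normalized. Summary lines (22.9% of reads on average) stayed out of library sizes. Reads are not molecules, so counting error understates the true error.

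Symbols came from GENCODE on GRCm38 (54809 of 54838 identifiers matched). Counts were tested with edgeR 4.0.16 in R 4.3.3 (TMM, filterByExpr with a count minimum of 10 and a total minimum of 15, quasi-likelihood test, two-sided, Benjamini-Hochberg over all genes, threshold 0.05), with group means for sex and treatment. D1 and D2 were fitted apart, and all 48 libraries together for D1 minus D2. All 7 genes passed each filter, which kept 16782, 17706 and 18270 genes. Alternatives used DESeq2 1.42.0, limma 3.58.1 (voom), RLE scaling, no filter, a replicate block, 1 fit of all libraries, a vascular covariate, and fits without single libraries. The script was tested on simulated data. The labels name no batch. No pair of replicates among 120 was a copy of another. Log2 CPM used a prior count of 2. Members are described in each comparison, some only by their range. Of each list, up to 4 genes past the threshold with the largest change were named, or else up to 2 with the smallest p, for some lists only. The members, lists and tests were chosen with earlier results of these data known.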

Additional observations from a re-analysis of the deposited data

Results flagged for a closer look

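Each member was screened for a library that stands far from the other 5 of its group, which covered 56 groups of values. Chance alone sets about 1 in 20 such groups apart, and 6 were found. In D1 female fentanyl 1, Fosb stood at 12.3 CPM, against 7.08 CPM in the next library of its group, and Fosl2 at 53.7 CPM, against 34.6 CPM. Both came from the same pool. Without it the D1 response over both sexes was −0.20 for Fosb and 0.07 for Fosl2 on the log2 scale, against −0.10 and 0.15 with it, and neither passed. In D2 male fentanyl 3, Jun stood at 262 CPM, against 311 CPM in the next library. Jund stood at 38.6 CPM in D1 male fentanyl 6, against 0.602 CPM in the next library. It stood at 39.7 CPM in D1 male water 6, against 0.73 CPM, and at 6.6 CPM in D2 female fentanyl 5, against 0.425 CPM. The cause of these Jund values was not tested.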

How the results depend on the processing

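Of 1090 alternative values 1029 were classed as unchanged. A count of called genes was so classed if equal or of similar size, and a member's value if it kept its direction and side of the threshold. The Jun and Junb differences between D1 and D2 did so in all 6 settings of each treatment, between −2.88 and −2.72 for Jun and between −0.47 and −0.25 for Junb. Counts of called genes moved under DESeq2, in D1 to 3 (both sexes), 4 (males), 4 (difference of the sexes) and 13 (females minus males in water, 8 in edgeR), and in D2 to 1 (males), 4 (females), 11 (difference of the sexes) and 106 (females minus males in water, 15 in edgeR), and to 6 for the response in D1 minus D2. Without the 3 libraries of high Jund, a setting chosen after the data were seen, they were 1 for the D1 difference of the sexes and 1 for the response in D1 minus D2. Under limma voom Jund in D1 minus D2 water was 1.10, Fos in D1 minus D2 fentanyl 0.52 and past the threshold, Fosb in D2 −0.017 and Fosl1 in the response of D1 minus D2 −0.009. Fosb in D2 was −0.007 with the vascular covariate. Without the 3 libraries Jund in D1 minus D2 water was 0.264 and in D1 males 0.281, Jund and Fosl1 in D1 females minus males in water were 0.487 and 0.026, Fosb and Jun in D2 −0.017 and 0.002, Fos, Fosl1 and Jund in D2 females −0.086, 0.033 and −0.159, and Junb and Jund in the D2 difference of the sexes −0.022 and −0.44. Fits that left out a single library changed the sign of 31 member values. In the other settings 14 values changed sign, 10 of which lay within 0.1 of 0 with all libraries. The other 4 were Jund in D1 females minus males in water (−3.541 with all libraries), in D2 females (1.677) and in the D2 difference of the sexes (1.397), and Fos in D2 females (0.236). The cause was not tested.

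Leaving out each library in turn gave, for D1 minus D2 in water, 0.283 to 2.404 for Jund (lowest without D1 male water 6) and −0.046 to 0.136 for Fos. For fentanyl minus water it gave −0.011 to 0.164 for Fosl1 and −2.197 to 1.679 for Jund in D1, and −0.227 to 0.052 for Fos, −0.051 to 0.061 for Fosb, −0.061 to 0.119 for Fosl1, −0.096 to 0.02 for Fosl2 and −0.045 to 0.01 for Jun in D2.

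The replicate numbers gave no general pairing of the libraries: 7 of 24 same-numbered pairs had a correlation over 0.1 (−0.251 to 0.324, median −0.013, against −0.0025 for other pairs), and 2 fentanyl libraries matched their own number best. D1 male fentanyl 6 and D1 male water 6, which share a number, did share the high Jund, Gm10420 and Rtl8b, and a link between them was not tested. High Rtl8b is not particular to these libraries, since every group had a library with high Rtl8b. With the replicate block the counts were 0 for fentanyl minus water in D1 and in D2 and 9692 for D1 minus D2 in water, Jund in D1 minus D2 water was 1.368 (adjusted p = 0.0975) and Jund in D1 males 0.095. DESeq2 gave no adjusted p for 14 member values, 13 of them of Jund. Depth limits Jund and Fosl1 most, at medians of 14 and 50 reads per library.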
